A study of Mus musculus with 12 samples.

Results

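AP-1 is a family of transcription factors that act as pairs, in which a Fos, Jun, ATF or related protein joins a partner through a leucine zipper and the pair binds DNA. The 10 AP-1 genes described here were chosen by name among the 16570 genes of the deposited table. They are the Fos family genes Fos, Fosb, Fosl1 and Fosl2, the Jun family genes Jun, Junb and Jund, and the related dimer partners Jdp2, Atf3 and Batf3. RNA of cultured bone marrow cells from C57BL/6J mice aged 6 to 8 weeks was sequenced in 12 libraries, 3 in each of 4 groups, with totals of 17760844 to 18344989 expected counts. M-CSF at 50 ng/mL, which turns marrow cells into macrophages, was given to all cells during 2 days before treatment and stayed in the medium of every group. For the next 2 days the RHC80267 group received RANKL, the osteoclast differentiation cytokine, at 100 ng/mL together with RHC80267, an inhibitor of diacylglycerol lipase, at 1 μM. The BMS309403 group received RANKL at 100 ng/mL together with BMS309403, which blocks the lipid carrier FABP4, at 1 μM. The RANKL group received RANKL at 100 ng/mL without an inhibitor, and the M-CSF group received M-CSF alone. The labels' protocols differ on the length of RANKL exposure, with 2 days under treatment, the value used here, and 4 days under growth, and the treatment protocol writes RANK for the inhibitor groups, whose own treatment labels give RANKL. Whether the 3 libraries of a group came from different cultures or mice is not stated in the labels, so the p-values rest on the spread among these libraries alone, which may be technical. No group with an inhibitor but without RANKL was analysed here.

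RANKL signalling raises c-Fos protein in osteoclast precursors, and c-Fos with a Jun partner then acts with NFATc1, the master transcription factor of the osteoclast, on the promoters of osteoclast genes. Mice without Fos form no osteoclasts, and in mouse cells JunB, Jun, Fra-2 (encoded by Fosl2) and JDP2 have each been linked to osteoclast formation. ATF3 is an inducible stress factor that dampens inflammatory genes in macrophages, and BATF3 is known for its part in dendritic cells.

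The 10 genes did not move as one. Jdp2, Fosl2, Fos and Junb were each highest with RHC80267, next with RANKL alone, next with BMS309403 and lowest with M-CSF alone, and every neighbouring pair in that order was called as different. Atf3 ran the other way, lowest with RHC80267 and highest with M-CSF alone, again with every neighbouring pair called. Jun and Jund had no neighbouring pair called over the 4 groups. Fosb, Fosl1 and Batf3 were near the limit of detection. A gene is called here when edgeR's quasi-likelihood test, fitted on all 12 libraries, gave an adjusted p below 0.05, with Benjamini-Hochberg adjustment over the 12168 genes tested. Of the 10 genes 9 were tested and Fosl1 was removed by the filter on low counts. Levels of a gene are CPM, its counts relative to the library total scaled by TMM, and fold changes are fitted log2 ratios with their standard error.

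**Figure D1:**
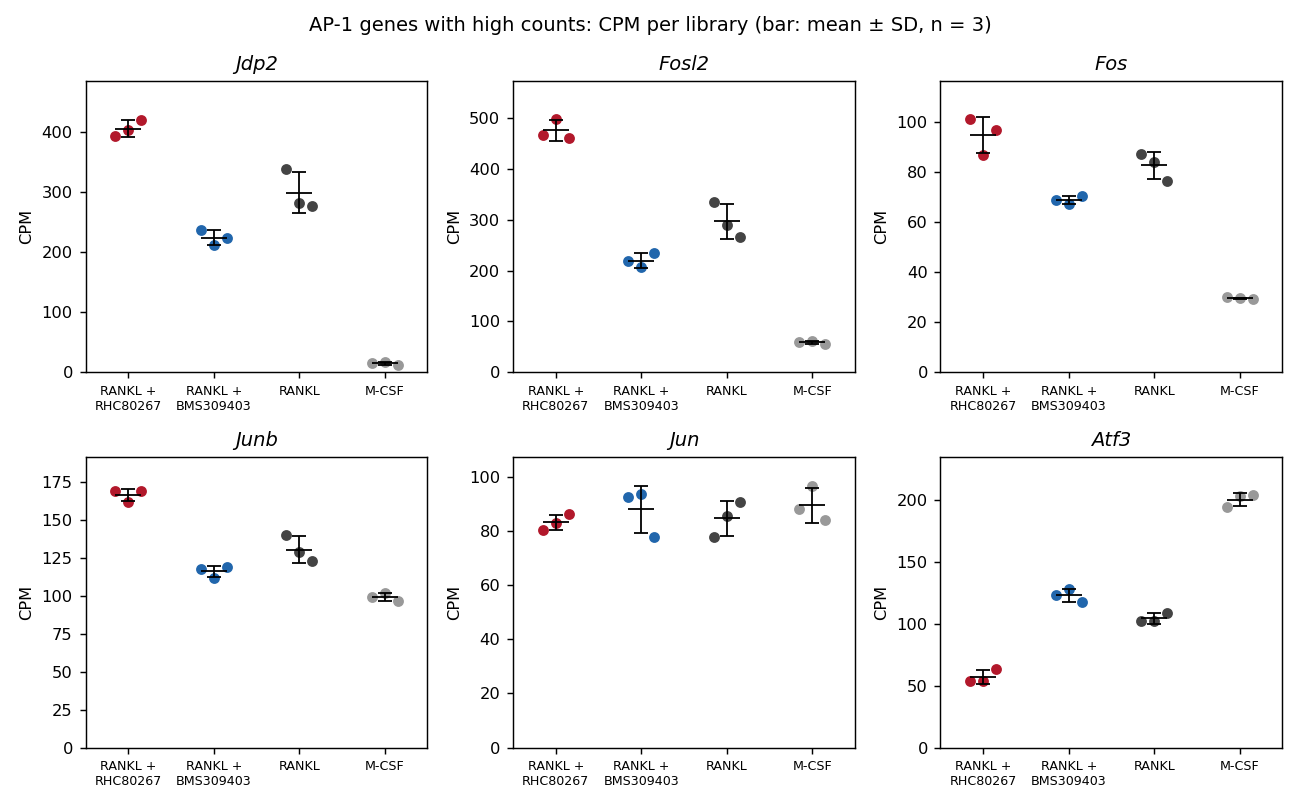
CPM of Jdp2, Fosl2, Fos, Junb, Jun and Atf3 in every library (points), by group, with the mean and SD of 3 libraries (bars). Jdp2 spans 12.2 to 420 CPM over the 12 libraries, the Atf3 groups run in the opposite order to Jdp2, and the 4 groups of Jun overlap.

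RefSeq start sites of 9 of the 10 genes had an entry in the promoter table used (GRCm38.p6), which gave 11 windows of 250 bases upstream of a start. The stretches below belong to genes that shared the order over the groups (Fos, Junb and Jdp2), to the gene with the opposite order (Atf3) and to a gene with no called difference between neighbouring groups (Jun), and are shown so that they can be compared. Fosl2, which shared the order of Fos, Junb and Jdp2, is not printed, since its window lies wholly in annotated exons and held 0 of the motifs. Jund and Fosb, which also had no called difference between neighbouring groups, are not printed either. The Jund window held 0 of the motifs and the Fosb window held the motif TGACG. Motifs are in capitals. Those searched on both strands were TGANTCA, TGACGTCA (the classical CRE element), TGACATCA, TTACGTCA and the CRE core TGACG, all chosen with the sequences in view. TGANTCA was searched with any base at N, which is wider than the classical AP-1 element, with C or G there. Fos (chr12:85473640-85473889, + strand), Junb (chr8:84978749-84978998, − strand), Jun (chr4:95052223-95052472, − strand) and Atf3 (chr1:191183334-191183583, − strand) are whole windows. Jdp2 has 3 windows, of which 188 bases of the second, outside annotated exons, are shown (chr12:85599228-85599415, + strand). Every sequence reads 5′ to 3′ on the gene's own strand and ends just before the start.
Fos: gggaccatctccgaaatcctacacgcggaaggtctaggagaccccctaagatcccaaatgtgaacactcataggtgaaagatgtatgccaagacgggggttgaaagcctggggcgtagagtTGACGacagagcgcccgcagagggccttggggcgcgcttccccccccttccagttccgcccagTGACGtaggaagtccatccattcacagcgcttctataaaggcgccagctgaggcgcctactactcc
Junb: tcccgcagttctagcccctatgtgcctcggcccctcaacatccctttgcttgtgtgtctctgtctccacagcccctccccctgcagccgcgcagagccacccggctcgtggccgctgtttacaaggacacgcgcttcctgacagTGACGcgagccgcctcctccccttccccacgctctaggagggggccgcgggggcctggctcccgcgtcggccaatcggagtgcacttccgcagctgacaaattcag
Jdp2: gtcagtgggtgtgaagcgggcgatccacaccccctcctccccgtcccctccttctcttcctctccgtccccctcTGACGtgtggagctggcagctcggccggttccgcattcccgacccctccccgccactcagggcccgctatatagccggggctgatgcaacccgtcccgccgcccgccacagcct
Atf3: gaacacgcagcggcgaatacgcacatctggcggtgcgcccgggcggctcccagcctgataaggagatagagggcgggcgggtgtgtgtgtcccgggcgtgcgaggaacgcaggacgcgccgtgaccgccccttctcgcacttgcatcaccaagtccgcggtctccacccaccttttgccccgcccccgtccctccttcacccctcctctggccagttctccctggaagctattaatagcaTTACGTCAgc
Jun: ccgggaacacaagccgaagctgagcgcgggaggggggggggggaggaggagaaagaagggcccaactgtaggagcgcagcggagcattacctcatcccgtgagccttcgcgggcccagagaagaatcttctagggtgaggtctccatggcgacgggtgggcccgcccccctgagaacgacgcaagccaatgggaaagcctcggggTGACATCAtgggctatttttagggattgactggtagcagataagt

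TGACG was found in 5 of the 9 genes, not in Fosl2, Jun, Jund or Batf3. Counted by window, it was in 5 of the 11 windows of these genes. Over all 32841 windows of the same length the share was 17.8%. G and C made up 58.4% to 76% of the bases in the AP-1 windows, except Jund at 47.6%. The mean of all windows was 53.2%. TGACG itself contains CG, and windows of like G and C content were not compared, so no excess of TGACG can be read from these shares. It lay 129 to 125 and 66 to 62 bases upstream of the Fos start, 106 to 102 bases upstream of Junb and 114 to 110 bases upstream of the second Jdp2 start. The Atf3 window held TTACGTCA 10 to 3 bases before the start, a motif present in 0.448% of all windows, and the TGACG match of Atf3 lies within it on the other strand. Fosb was the fifth gene with TGACG. Jun held TGACATCA at 45 to 38 bases upstream, against 2.93% of all windows. TGANTCA with any base at N, present in 6.75% of all windows, and TGACGTCA, present in 1.55%, were in none of the 11 windows of the AP-1 genes. These are matches of letters, and no binding was measured.

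Under RANKL against M-CSF alone, 4 of the 9 tested genes rose (Jdp2, Fosl2, Fos and Junb), 2 fell (Atf3 and Batf3) and 3 were not called (Fosb, Jun and Jund). Over all genes 61.2% were called in this comparison, 31.4% higher and 29.8% lower, so a count of 6 called among 9 was near the background. The sizes were wide apart. The median log2 ratio of the 9 genes was 0.40 and that of all tested genes 0.003, with single genes between −0.94 and 4.34.

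Jdp2 encodes Jun dimerization protein 2, a partner of Jun proteins that can repress AP-1 sites and is needed for normal osteoclast formation in mice. It had the largest RANKL response of the 9 tested genes. Its level was 393, 403 and 420 CPM in the 3 RHC80267 libraries, 237, 211 and 223 CPM in the BMS309403 libraries, 338, 282 and 276 CPM in the RANKL libraries and 15, 17.2 and 12.2 CPM in the M-CSF libraries. No group overlapped another. The log2 ratio of RANKL over M-CSF was 4.34 ± 0.09 (edgeR adjusted p = 4.89e-20). RHC80267 over RANKL was 0.44 ± 0.06 (edgeR adjusted p = 8.76e-06), and BMS309403 over RANKL was −0.42 ± 0.07 (edgeR adjusted p = 0.000596). Between the inhibitors, RHC80267 over BMS309403 was 0.86 ± 0.07 (edgeR adjusted p = 3.88e-10). Leaving out any 1 library kept all of these calls, with BMS309403 over RANKL between −0.47 and −0.32.

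Fosl2, which encodes Fra-2, a Fos family protein that pairs with Jun proteins, responded to RHC80267 with the largest rise of the 9 tested genes. It measured 467, 499 and 462 CPM in the RHC80267 libraries, 218, 206 and 235 CPM in the BMS309403 libraries, 335, 289 and 266 CPM in the RANKL libraries and 58.4, 61.2 and 55.7 CPM in the M-CSF libraries. The groups did not overlap, and the lowest RHC80267 library stood above the highest RANKL library by more than the range of the RHC80267 group. In log2, RANKL over M-CSF was 2.34 ± 0.07 (edgeR adjusted p = 1.75e-17). RHC80267 over RANKL was 0.68 ± 0.06 (edgeR adjusted p = 5.74e-09) and BMS309403 over RANKL −0.43 ± 0.06 (edgeR adjusted p = 0.000354). RHC80267 over BMS309403 was 1.11 ± 0.06 (edgeR adjusted p = 1.56e-12).

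Fos encodes c-Fos, the family member that osteoclast formation in mice cannot do without. Its level was 101, 86.8 and 96.6 CPM in the RHC80267 libraries, 68.6, 67.3 and 70.2 CPM in the BMS309403 libraries, 87.1, 84 and 76.5 CPM in the RANKL libraries and 29.8, 29.4 and 29.3 CPM in the M-CSF libraries. One RHC80267 library lay just under the highest RANKL library, so those groups overlapped, while the BMS309403 and M-CSF groups overlapped no other. For RANKL over M-CSF the ratio was 1.49 ± 0.06 (edgeR adjusted p = 2.97e-15). RHC80267 over RANKL was 0.20 ± 0.05 (edgeR adjusted p = 0.00302), BMS309403 over RANKL was −0.26 ± 0.05 (edgeR adjusted p = 0.00389), and RHC80267 over BMS309403 was 0.46 ± 0.05 (edgeR adjusted p = 1.72e-07).

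Junb, the Jun family member of this set that moved with RANKL, encodes a partner of Fos proteins. It had 169, 162 and 169 CPM in the RHC80267 libraries, 118, 112 and 119 CPM in the BMS309403 libraries, 140, 129 and 123 CPM in the RANKL libraries and 99.2, 102 and 97 CPM in the M-CSF libraries. Every group stood apart, although only a few CPM separated the highest BMS309403 library from the lowest RANKL library. RANKL over M-CSF was 0.40 ± 0.05 (edgeR adjusted p = 1.02e-07), RHC80267 over RANKL 0.35 ± 0.04 (edgeR adjusted p = 8.83e-07) and RHC80267 over BMS309403 0.52 ± 0.04 (edgeR adjusted p = 1.7e-09). BMS309403 over RANKL was −0.17 ± 0.04 (edgeR adjusted p = 0.0222), and that call ended without RANKL replicate 1 (−0.12, edgeR adjusted p = 0.192), without RANKL replicate 2 (−0.17, edgeR adjusted p = 0.0556) or without BMS309403 replicate 2 (−0.14, edgeR adjusted p = 0.148).

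Jun encodes c-Jun, the classical partner of c-Fos. It had 80.4, 82.8 and 86.1 CPM in the RHC80267 libraries, 92.3, 93.5 and 77.8 CPM in the BMS309403 libraries, 77.7, 85.3 and 90.7 CPM in the RANKL libraries and 87.9, 96.6 and 84 CPM in the M-CSF libraries. All 4 groups overlapped. The ratio of RANKL over M-CSF was −0.08 with a 95% interval of −0.22 to 0.05 (edgeR adjusted p = 0.28). The interval of BMS309403 over RANKL was −0.08 to 0.19 around 0.06 (edgeR adjusted p = 0.717), and that of RHC80267 over RANKL −0.16 to 0.11 around −0.02 (edgeR adjusted p = 0.781). RHC80267 over BMS309403 was −0.08 (edgeR adjusted p = 0.306) and was called at −0.18 without BMS309403 replicate 3 (edgeR adjusted p = 0.017). These intervals leave room for small changes of the mRNA, and c-Jun protein and its phosphorylation, through which Jun kinases act, were not measured.

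Jund, whose JunD protein is the Jun family member present in most resting cells, had 62.1, 60.7 and 69.6 CPM in the RHC80267 libraries, 55.8, 55.9 and 62.4 CPM in the BMS309403 libraries, 59.1, 58.8 and 63.3 CPM in the RANKL libraries and 60.7, 60.7 and 57.3 CPM in the M-CSF libraries. The log2 ratio was 0.02 for RANKL over M-CSF with a 95% interval of −0.10 to 0.14 (edgeR adjusted p = 0.766), BMS309403 over RANKL −0.06 (edgeR adjusted p = 0.644) and RHC80267 over RANKL 0.09 (edgeR adjusted p = 0.206). RHC80267 over BMS309403 was called at 0.14 ± 0.06 (edgeR adjusted p = 0.0331) with groups that overlapped. That call ended with DESeq2 (DESeq2 adjusted p = 0.0755), with no filter, with a stricter filter, with only those groups in the fit, and without BMS309403 replicate 1, BMS309403 replicate 2 or RHC80267 replicate 3, with ratios of 0.08 to 0.18 over the left-out libraries. The annotation holds a second copy of the Jund transcripts on an unplaced sequence, within the same gene entry of 6 transcripts. Whether the counts of the entry take in both copies in full is not given, so the level of Jund is taken as uncertain.

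Atf3 was the AP-1 gene that fell most under RANKL and under RHC80267 among those with high counts. It measured 53.5, 53.8 and 63.6 CPM in the RHC80267 libraries, 123, 128 and 118 CPM in the BMS309403 libraries, 102, 102 and 109 CPM in the RANKL libraries and 194, 203 and 204 CPM in the M-CSF libraries. No group overlapped another, and the M-CSF level was the highest. Under RANKL over M-CSF the ratio was −0.94 ± 0.05 (edgeR adjusted p = 4.24e-13). RHC80267 over RANKL was −0.87 ± 0.06 (edgeR adjusted p = 2.62e-11) and RHC80267 over BMS309403 −1.11 ± 0.05 (edgeR adjusted p = 2.43e-13). BMS309403 over RANKL was 0.24 ± 0.05 (edgeR adjusted p = 0.00717), a call that ended without BMS309403 replicate 2 at 0.21 (edgeR adjusted p = 0.0554).

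**Figure D2:**
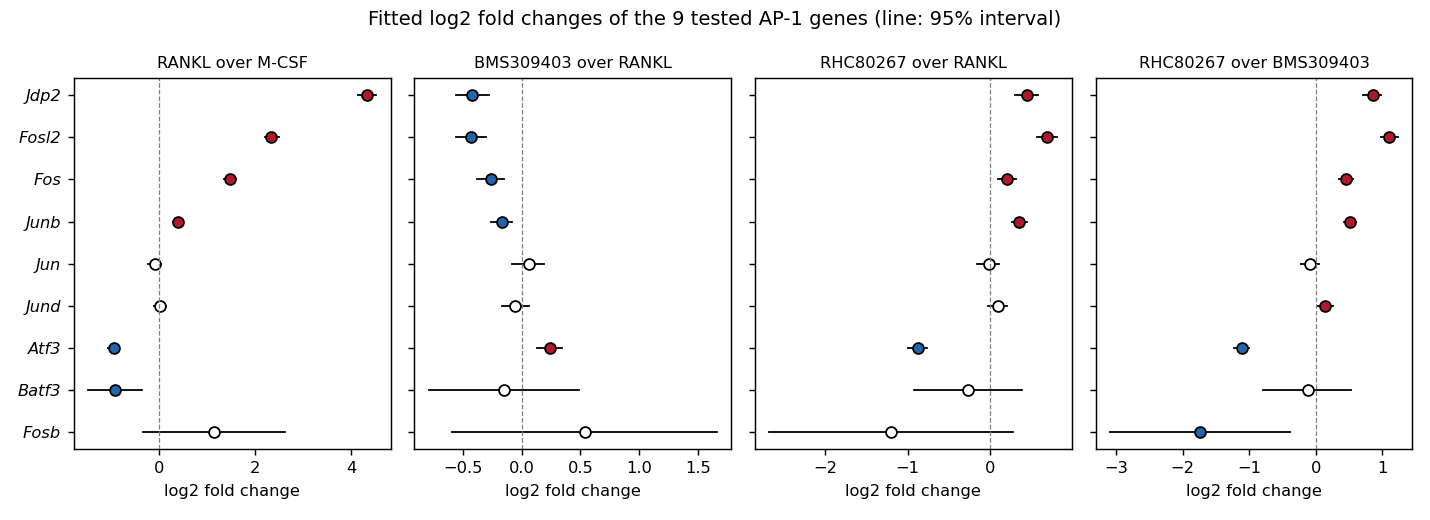
Fitted log2 fold change (points) and 95% interval (lines) of the 9 tested AP-1 genes in 4 comparisons, with filled points for genes called at an adjusted p below 0.05 and a horizontal scale of its own in each panel. Jdp2, Fosl2, Fos and Junb lie right of 0 under RANKL and under RHC80267 and left of 0 under BMS309403, while Atf3 lies on the other side in each. The filled Fosb point is no test, since the BMS309403 libraries admitted that gene.

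Few reads fell on Batf3, Fosb and Fosl1, so per-library values of these genes are given in counts rather than CPM. Batf3 had 12, 11 and 15 counts in the RHC80267 libraries, 11, 12 and 17 in the BMS309403 libraries, 21, 11 and 13 in the RANKL libraries and 30, 26 and 28 in the M-CSF libraries. The M-CSF libraries were above all others. RANKL over M-CSF was −0.92 ± 0.26 in log2 (edgeR adjusted p = 0.00502), and the calls of RHC80267 over M-CSF at −1.18 ± 0.27 (edgeR adjusted p = 0.00061) and of BMS309403 over M-CSF at −1.06 ± 0.27 (edgeR adjusted p = 0.00209) were of like size. Between the RANKL-treated groups no difference was called, with BMS309403 over RANKL at −0.15, RHC80267 over RANKL at −0.27 and RHC80267 over BMS309403 at −0.12. Dendritic cell markers, summed over a list of 10 genes, were at 49.2 to 55.4 CPM with RHC80267, 68.4 to 73.8 CPM with BMS309403, 76.4 to 81.7 CPM with RANKL and 47.5 to 64.4 CPM with M-CSF alone, with 9 of the 10 tested. None of those markers was at 0 throughout a group, and 5 of them rose under RANKL, where 31.4% of all genes rose, while Batf3 fell. Their part in the Batf3 values was not tested.

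Fosb, which encodes the Fos protein FosB, had 3, 3 and 4 counts in the RHC80267 libraries, 12, 11 and 10 in the BMS309403 libraries, 2, 3 and 18 in the RANKL libraries and 1, 7 and 2 in the M-CSF libraries. It passed the filter through the BMS309403 libraries and RANKL replicate 3, so that a difference from the BMS309403 group was part of what admitted it and its calls there are no test. RHC80267 over BMS309403 was −1.74 ± 0.65 and BMS309403 over M-CSF 1.69 ± 0.65. The first was past the threshold, but not with DESeq2 as run here, and it stayed past it in only 1 of 6 fits that left out a library. Its q-value in the authors' deposited table was 0.0428. RANKL over M-CSF was 1.15 ± 0.71 (edgeR adjusted p = 0.165), and −0.42 without RANKL replicate 3. BMS309403 over RANKL was 0.54 (edgeR adjusted p = 0.665), and 2.11 without RANKL replicate 3. RHC80267 over RANKL was −1.20 (edgeR adjusted p = 0.166), and 0.38 without RANKL replicate 3. The RANKL values of Fosb thus rest on RANKL replicate 3, with 18 counts.

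Fosl1, which encodes Fra-1, had 0, 1.07 and 2.12 expected counts in the RHC80267 libraries, 1.05, 4.17 and 1.08 in the BMS309403 libraries, 1.07, 1.09 and 3.27 in the RANKL libraries and 7.1, 9.9 and 8.42 in the M-CSF libraries. The M-CSF libraries were above the others, at a level too low for the filter. With no filter, RANKL over M-CSF was −2.26 (edgeR adjusted p = 0.00499), and DESeq2 gave −2.34 (DESeq2 adjusted p = 0.0392).

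**Figure D3:**
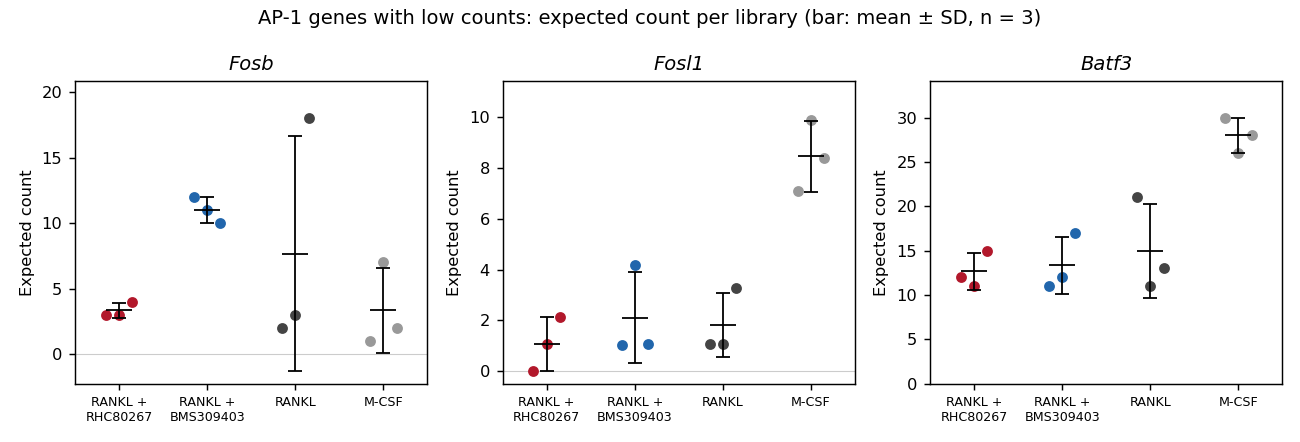
Expected counts of Fosb, Fosl1 and Batf3 in every library (points), by group, with the mean and SD of 3 libraries (bars). The M-CSF libraries are highest for Fosl1, at 7.1 to 9.9, and for Batf3, at 26 to 30, and RANKL replicate 3 stands alone at 18 counts of Fosb.

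BMS309403 against RANKL was the smaller of the inhibitor comparisons. In it 4 of the 9 tested AP-1 genes fell (Jdp2, Fosl2, Fos and Junb), 1 rose (Atf3) and 4 were not called, where 7.23% of all genes were called, 3.49% higher and 3.74% lower. The median ratio of the 9 genes was −0.15, beside −0.006 for all tested genes. Jdp2, Fosl2 and Fos kept their calls whichever library was left out, with edgeR adjusted p at most 0.00945, 0.00513 and 0.0407. The count of genes called over the whole table depended on single libraries, at 880 with all, 263 without RANKL replicate 1 and 316 without BMS309403 replicate 2. RANKL replicate 1 had the highest Jdp2, Fosl2, Fos and Junb of its group. The count of risen AP-1 genes was 0 without BMS309403 replicate 2 and 2 without RANKL replicate 3, when Fosb joined Atf3.

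RHC80267 against RANKL gave 4 risen genes (Fosl2, Jdp2, Junb and Fos), 1 fallen gene (Atf3) and 4 not called, where 49.9% of all genes were called, 26.9% higher and 23% lower. That share is near the background. Without RANKL replicate 1 the fallen genes were 2, when Fosb joined Atf3 at −1.66 on the 18 counts of RANKL replicate 3. RHC80267 against BMS309403 gave 5 risen genes (Fosl2, Jdp2, Junb, Fos and Jund) and 2 genes past the threshold below 0 (Atf3 and Fosb), where 55.5% of all genes were called, 30.1% higher and 25.5% lower. Of these, Fosb entered the test through the BMS309403 libraries and its call is no test, and Jund lost its call without BMS309403 replicate 1, BMS309403 replicate 2 or RHC80267 replicate 3. The medians over the 9 genes were 0.09 and 0.14, beside 0.025 and 0.027 for all tested genes. Both inhibitors were compared with the same 3 RANKL libraries, so their ratios are not independent, while the ratio of RHC80267 to BMS309403 uses neither those libraries nor the M-CSF libraries for its means. At 1 μM of each compound, RHC80267 over BMS309403 was 1.11 for Fosl2, 0.86 for Jdp2, 0.52 for Junb, 0.46 for Fos and −1.11 for Atf3.

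Jdp2, Fosl2, Fos and Junb were higher and Atf3 and Batf3 lower in both inhibitor groups than with M-CSF alone. With RHC80267 4 genes were higher and 2 lower, where 70.4% of all genes were called, 36% higher and 34.4% lower. With BMS309403 5 were higher, among them Fosb, whose call is no test because the BMS309403 libraries admitted it, and 2 lower, where 57% of all genes were called, 29.7% higher and 27.3% lower. Jdp2 was 4.78 ± 0.09 above its M-CSF level in log2 with RHC80267 and 3.92 ± 0.09 above it with BMS309403. Fosl2 was 3.03 above with RHC80267 and 1.91 above with BMS309403. Fos was 1.68 above with RHC80267 and 1.22 above with BMS309403, and Junb 0.75 above with RHC80267 and 0.23 above with BMS309403. Atf3 was at −1.81 with RHC80267 and −0.71 with BMS309403. All of these were called, with edgeR adjusted p at most 0.000202.

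Levels of different genes were compared per transcript length, on the authors' FPKM values, with no test. The FPKM of the 10 genes summed to 664 ± 17 with RHC80267, 446 ± 14.1 with BMS309403, 536 ± 42.9 with RANKL and 279 ± 6.86 with M-CSF alone (SD, n = 3 each). Jdp2 was the largest part of the sum in the RANKL-treated groups, with 47.4% ± 0.587 with RHC80267, 37.5% ± 1.32 with BMS309403 and 42.8% ± 1.98 with RANKL, against 4.01% ± 0.604 with M-CSF alone (SD, n = 3 each). In the M-CSF libraries Atf3 took the largest part. Its share was 5.33% ± 0.398 with RHC80267, 16.3% ± 0.963 with BMS309403 and 11.9% ± 1.1 with RANKL, against 42.6% ± 1.33 with M-CSF alone (SD, n = 3 each). The FPKM of the 3 Jun family genes summed to 169 ± 5.13, 127 ± 2.34, 140 ± 4.05 and 118 ± 4.66 with RHC80267, BMS309403, RANKL and M-CSF alone. The FPKM of the 4 Fos family genes summed to 143 ± 1.9, 76.8 ± 3.48, 100 ± 9.89 and 27 ± 0.671 in the same order. Jun family transcripts thus exceeded Fos family transcripts per length in every group, by the widest margin with M-CSF alone. With RHC80267 the margin was about the size of Jund, at 25.9 ± 1.99 FPKM, a gene whose level is uncertain. Within the Fos family, Fosl2 was above Fos with RHC80267, at 88.6 ± 3.23 against 54.6 ± 4.33 FPKM, and below it with M-CSF alone, at 10.4 ± 0.506 against 16.2 ± 0.255 FPKM. Junb led the Jun family, with 113 ± 3.06, 75 ± 2.95, 86.7 ± 6.55 and 64.3 ± 1.78 FPKM over the 4 groups.

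**Figure D4:**
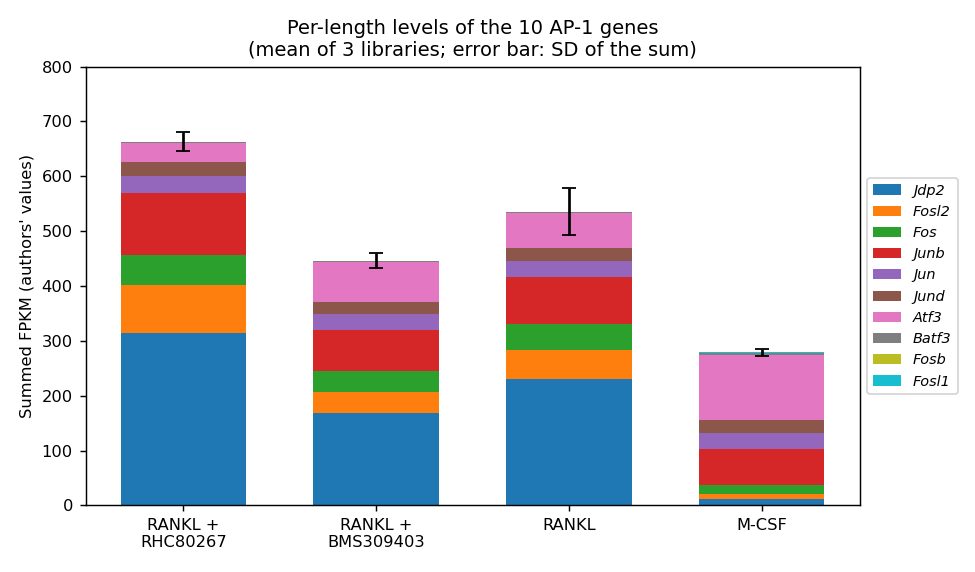
Stacked mean FPKM of the 10 AP-1 genes in each group (authors' values, mean of 3 libraries), with the SD of the sum as the error bar. The sum is 664 with RHC80267, 446 with BMS309403, 536 with RANKL and 279 with M-CSF alone, and the Jdp2 segment is the largest in the RANKL-treated groups.

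Some of these genes are neighbours. On chromosome 12 (GRCm38.p6) Fos (85473890 to 85477274), Jdp2 (85597019 to 85639878) and Batf (85686720 to 85709087) follow one another on the + strand within 235 kb. Fos and Jdp2 shared their direction in each of the 4 comparisons above. Batf, whose BATF protein pairs with Jun proteins, is outside the 10 genes. It was at 7.43 ± 0.391 CPM with RHC80267, 4.79 ± 0.833 CPM with BMS309403, 5.2 ± 0.483 CPM with RANKL and 5.27 ± 0.308 CPM with M-CSF alone. Batf was at −0.02 under RANKL over M-CSF (edgeR adjusted p = 0.906), and RHC80267 over RANKL was 0.51 ± 0.12 (edgeR adjusted p = 0.00147). On chromosome 1 Batf3 (191098414 to 191111963, + strand) and Atf3 (191170296 to 191183333, − strand) lie within 85 kb, with the untested gene Fam71a between them. Both Batf3 and Atf3 fell under RANKL, at −0.92 and −0.94, and of the pair Atf3 alone was called with an inhibitor over RANKL or between the inhibitors. Fosl2 (chromosome 5, 32136173 to 32157840), Junb (chromosome 8, 84976909 to 84978748), Jun (chromosome 4, 95047647 to 95052222), Fosb (chromosome 7, 19302696 to 19310118) and Fosl1 (chromosome 19, 5447698 to 5455938) lie elsewhere.

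For each tested member the 3 genes of most similar pattern over the 12 libraries were taken by the root mean square difference of log2 CPM centred on each gene's mean, among genes that averaged 5 CPM or more. Jdp2 was closest to St8sia6, Tm4sf19 and Plxna4, at differences of 0.134 to 0.167. Fosl2 was closest to Adgra3, Adcy3 and Grk3, at 0.0975 to 0.103. Fos was closest to Atp6v1b2, which encodes a subunit of the osteoclast proton pump, to the cytochrome c gene Cycs and to the kinase gene Matk, at 0.0849 to 0.0861. Junb was closest to Tbc1d10b, Specc1 and Adgre5 (0.0447 to 0.052), Jun to Cnnm2, Phax and Golga7 (0.0589 to 0.0656), and Jund to Tcf3, Ciz1 and Taf4 (0.0411 to 0.0526). Atf3 was closest to Lilr4b, Bsn and Cuedc1, at 0.0826 to 0.112, and Lilr4b fell by 0.91 on the log2 scale with RHC80267 over RANKL. Batf3 was closest to Slc7a11, Dennd2c and Per3 (0.196 to 0.21). The nearest genes to Fosb, led by Fabp5 at 0.576, were farther from it than those of any other member.

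Most osteoclast genes listed as AP-1 and NFATc1 targets moved in the direction of Jdp2, Fosl2, Fos and Junb. The list holds known osteoclast markers, whose rise under RANKL was given by their choice, so that rise is no test of AP-1. Traf6 and Tnfrsf11a, also listed, belong to RANKL signalling itself. Under RANKL over M-CSF 14 of 14 rose, where 31.4% of all genes rose, with a median of 6.22 in log2. Of the 14, 13 rose and 0 fell with RHC80267 over RANKL, with a median of 0.84, where 26.9% of all genes rose. With RHC80267 over BMS309403 13 rose, with a median of 1.16, where 30.1% of all genes rose. BMS309403 over RANKL had 9 fallen genes, with a median of −0.31, where 3.74% of all genes fell. Of the list 6 fell without RANKL replicate 1 or without BMS309403 replicate 2. Nfatc1 was at 396 ± 8.1 CPM with RHC80267, 194 ± 11.2 CPM with BMS309403, 239 ± 26.4 CPM with RANKL and 66.4 ± 1.24 CPM with M-CSF alone (SD, n = 3 each). Acp5, which encodes tartrate-resistant acid phosphatase, reached 4140 ± 217 CPM with RHC80267, 1690 ± 73 CPM with BMS309403 and 2140 ± 211 CPM with RANKL, against 5.77 ± 0.509 CPM with M-CSF alone. Calcr, the calcitonin receptor gene, had the smallest p in the list with RHC80267 over RANKL, at 2.01 ± 0.07 (edgeR adjusted p = 3.74e-15). Tnfrsf11a, which encodes the RANKL receptor, rose under RANKL by 0.81 and was not called with either inhibitor.

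The libraries are bulk RNA, in which fewer cells of a type and less RNA per cell cannot be told apart. All 10 macrophage markers were tested and their sum was 8200 to 8280 CPM with RHC80267, 9460 to 9710 CPM with BMS309403, 8550 to 8780 CPM with RANKL and 12700 to 13400 CPM with M-CSF alone. The 9 osteoclast markers summed to 16100 to 18300 CPM with RHC80267, 6710 to 7570 CPM with BMS309403, 8220 to 10200 CPM with RANKL and 108 to 132 CPM with M-CSF alone, in the same order of groups as Jdp2, Fosl2, Fos and Junb. All 9 are among the 14 genes listed above as AP-1 and NFATc1 targets, so their sum is not a second observation. Neutrophil markers, 10 of 10 tested, summed to 779 to 1130 CPM with RHC80267, 1620 to 1740 CPM with BMS309403, 1560 to 1760 CPM with RANKL and 1260 to 1770 CPM with M-CSF alone. Of 10 lymphoid and NK markers 6 were tested, with sums of 44.8 to 51.8, 118 to 131, 80.5 to 102 and 45.2 to 47.5 CPM over the same groups, with Ncr1 at 0 throughout the RHC80267, RANKL and M-CSF groups, Cd3e throughout the BMS309403 group and Cd3d throughout the M-CSF group. Of 10 stromal and endothelial markers 6 were tested, with sums of 16.9 to 59.8, 11.2 to 13.3, 13.5 to 20.1 and 16 to 19.7 CPM. The part of these cells in the AP-1 values was not tested.

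The other bZIP factors, which share the zipper fold, fell more often than they rose under RANKL. Of 32 tested, 6 rose and 19 fell under RANKL over M-CSF, where 31.4% of all genes were called higher and 29.8% lower, and the median was −0.26, against 0.003 for all genes. Cebpa, a factor of the myeloid lineage, fell by 0.73 (edgeR adjusted p = 4.63e-12), and Creb5 fell by 0.63 (edgeR adjusted p = 4.78e-10), while Creb3l2 rose by 0.87 (edgeR adjusted p = 1.75e-10). RHC80267 over RANKL had 12 risen and 7 fallen, led by Creb5 at −1.48 ± 0.06, Creb3l2 at 0.79 ± 0.06, Mafk at −0.62 ± 0.06 and Cebpb at 1.32 ± 0.16, where 26.9% of all genes were higher and 23% lower. With RHC80267 over BMS309403 12 rose and 10 fell, where 30.1% of all genes rose and 25.5% fell. BMS309403 over RANKL had 1 called, where 7.23% of all genes were called. That gene was Creb5 at 0.21 ± 0.05 (edgeR adjusted p = 0.0188), and its call ended when RANKL replicate 1 or BMS309403 replicate 2 was left out. Of the other bZIP factors 3 were higher and 1 lower when BMS309403 replicate 3 was left out.

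The MAP kinase routes to AP-1 are a list of kinases and adaptor proteins on the routes that activate Fos and Jun proteins. Their mRNAs fell more often than they rose under RANKL and with RHC80267. Of 27 tested, 4 rose and 16 fell under RANKL over M-CSF, beside 31.4% higher and 29.8% lower over all genes, and 2 rose without M-CSF replicate 2 or RANKL replicate 3. Map3k8, which encodes the kinase Tpl2, fell by 0.92 and Map3k1 fell by 0.56, while Map2k3 rose by 0.56. RHC80267 over RANKL had 4 risen and 12 fallen, led by Map2k3 at −0.31 ± 0.04, beside 26.9% and 23% of all genes. With RHC80267 over BMS309403 6 rose and 12 fell, beside 30.1% and 25.5% of all genes, and 3 rose without BMS309403 replicate 1. Under BMS309403 over RANKL 2 rose (Map3k8 at 0.31 and Map3k1 at 0.18) and 1 fell (Map2k3 at −0.13), beside 3.49% and 3.74% of all genes. Without RANKL replicate 1 or BMS309403 replicate 2 none of these 3 was called, without RANKL replicate 2 or BMS309403 replicate 3 only Map3k8 was, and Map2k3 was also lost without BMS309403 replicate 1.

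The MAP kinase feedback inhibitors held genes called in both directions. Of 15 tested, 6 rose and 4 fell under RANKL over M-CSF, a share near the 61.2% of all genes called. Spry1, which encodes a Sprouty inhibitor of receptor kinase signalling, was at 11 ± 1.91 CPM with RANKL against 0.28 ± 0.0964 CPM with M-CSF alone, a ratio of 5.26 ± 0.25 (edgeR adjusted p = 6.56e-14). Dusp4, a MAP kinase phosphatase gene, rose by 1.34 and Spred1 by 0.76, and Dusp16 fell by 0.80. RHC80267 over RANKL had 1 risen and 7 fallen, with Spry1 as the riser at 0.57 ± 0.11 and Spred2, at −0.92 ± 0.06, as the faller with the smallest p, where 26.9% of all genes rose and 23% fell. Without RANKL replicate 1, 2 rose. With RHC80267 over BMS309403 2 rose and 6 fell, where 30.1% of all genes rose and 25.5% fell. With BMS309403 over RANKL 1 fell, where 3.74% of all genes fell. That gene was Spred1 at −0.19 ± 0.05, which was called without RANKL replicate 3 and lost without any other library left out. In that fit without RANKL replicate 3, 2 fell.

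The immediate early genes outside AP-1, most of which are switched on by the same signals as Fos, had no common direction under RANKL. With RHC80267 the list had more fallen than risen genes. The list also holds Srf, Elk1, Elk3 and Elk4, which encode factors that act on such genes. Of these Srf is counted below among the risen under RANKL, and Elk3 and Elk4 among the fallen. Of 25 tested, 8 rose and 10 fell under RANKL over M-CSF, where 61.2% of all genes were called. Zfp36l1, which encodes an mRNA decay factor, fell by 1.19 and Ier3 fell by 2.13, while Myc rose by 1.61 and Nfkbia, the NF-κB inhibitor gene, by 0.64. Egr1, the immediate early gene often measured with Fos, was at 0.18 ± 0.11 under RANKL over M-CSF (edgeR adjusted p = 0.183). It was called at 0.26 ± 0.11 with RHC80267 over RANKL (edgeR adjusted p = 0.0451). Egr1 was not called with RHC80267 over BMS309403, at 0.17, or with BMS309403 over RANKL, at 0.10. With RHC80267 over RANKL 7 rose and 10 fell, led by Nfkbia at 0.53 ± 0.04 and Klf6 at −0.45 ± 0.04. Over all genes 26.9% rose and 23% fell. The median of the list was −0.22, against 0.025 for all tested genes. Srf, Elk1, Elk3 and Elk4 were among the fallen. With RHC80267 over BMS309403 4 rose and 13 fell, where 30.1% of all genes rose and 25.5% fell. Among these genes 4 fell with BMS309403 over RANKL (Tnfaip3 at −0.28, Myc at −0.42, Klf10 at −0.18 and Nfkbia at −0.15) and 0 rose, where 3.74% of all genes fell and 3.49% rose. Of the immediate early genes outside AP-1, 0 fell without RANKL replicate 1, 2 fell without RANKL replicate 2 or BMS309403 replicate 2, and 1 fell without BMS309403 replicate 3, while 1 rose without RANKL replicate 3.

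The interferon beta feedback on Fos is a loop known in mouse osteoclast precursors, in which c-Fos induces interferon beta and its receptor signal lowers c-Fos protein. Ifnb1 itself had 0 or 1 counts in every library and was not tested. Of 7 tested genes of the loop 5 fell and 0 rose under RANKL over M-CSF, where 29.8% of all genes fell and 31.4% rose. Socs3, an inhibitor of cytokine signalling, fell by 2.47 and Ifnar2, a receptor chain gene, by 0.50, while Stat2 was at −0.45, Irf9 at −0.44 and Ifnar1 at −0.14. Eif2ak2 and Socs1 were not called, at −0.11 and 0.33. Without M-CSF replicate 2 Eif2ak2 was called at −0.17.

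With RHC80267 over RANKL 6 of the 7 genes fell and 1 rose, where 23% of all genes fell and 26.9% rose. Stat2 was at 42.3 ± 0.754 CPM with RHC80267 against 94.9 ± 5.74 CPM with RANKL (SD, n = 3 each), a log2 ratio of −1.17 ± 0.07 (edgeR adjusted p = 1.05e-11). Eif2ak2, the interferon-induced kinase gene through which c-Fos translation is lowered in mice, was at −0.98, Irf9 at −0.81, Ifnar1 at −0.38, Socs1 at −1.25 and Ifnar2 at −0.18, while Socs3 rose by 0.71. All but Socs3 also fell with RHC80267 over BMS309403, with Stat2 at −1.55, where 25.5% of all genes fell. With BMS309403 over RANKL 3 rose, where 3.49% of all genes rose. They were Stat2 at 0.38 ± 0.06 (edgeR adjusted p = 0.000791), Irf9 at 0.23 ± 0.05 (edgeR adjusted p = 0.0112) and Eif2ak2 at 0.19 ± 0.05 (edgeR adjusted p = 0.0392). Stat2 kept its call when any 1 library was left out, while Irf9 and Eif2ak2 lost theirs without RANKL replicate 1 or BMS309403 replicate 2, and Eif2ak2 also without RANKL replicate 3.

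AP-1 cofactors and turnover factors, which bind AP-1 proteins or set their stability, were called about as often as all genes. Of 14 tested, 4 rose and 6 fell under RANKL over M-CSF, where 61.2% of all genes were called. Irf8, a repressor of osteoclast formation, fell by 0.84 (edgeR adjusted p = 1.43e-13) and Nfatc2 by 0.62. With RHC80267 over RANKL 4 rose and 4 fell, where 49.9% of all genes were called, led by Smad3 at −0.98 ± 0.07, and 2 fell without RHC80267 replicate 1 or RHC80267 replicate 3. With RHC80267 over BMS309403 4 rose and 4 fell, where 55.5% of all genes were called, and 2 fell without RHC80267 replicate 1. With BMS309403 over RANKL 2 rose, Irf8 at 0.16 and Nfatc2 at 0.20, where 3.49% of all genes rose. No member of this list was called without RANKL replicate 1, RANKL replicate 2, BMS309403 replicate 2 or BMS309403 replicate 3.

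Heat shock and handling stress genes were listed because Fos, Jun and Atf3 are quickly induced when cells are handled. Their sum was 3400 to 3470 CPM with RHC80267, 2990 to 3090 CPM with BMS309403, 3020 to 3130 CPM with RANKL and 2460 to 2540 CPM with M-CSF alone. Hspa8 made up most of it, at 2380 ± 16.4 CPM with RANKL and 2070 ± 44.1 CPM with M-CSF alone. Of 8 tested 5 rose and 2 fell under RANKL over M-CSF, where 61.2% of all genes were called, with Hspd1 at 0.96, and 1 fell without M-CSF replicate 3. The fallen genes were the stress-inducible Hspa1a at −0.98 ± 0.28 (edgeR adjusted p = 0.00509) and Hspa1b at −1.03 ± 0.25 (edgeR adjusted p = 0.0013), both of low counts. The listed genes thus had no common direction under RANKL. All 8 rose with RHC80267 over RANKL, where 26.9% of all genes rose, led by Hsph1 at 0.52 ± 0.06. With RHC80267 over BMS309403 8 rose, or 5 without BMS309403 replicate 2, where 30.1% of all genes rose with all libraries. With BMS309403 over RANKL 2 fell (Hspd1 at −0.16 and Hsp90aa1 at −0.15), where 3.74% of all genes fell. The count was 1 without RANKL replicate 2 or BMS309403 replicate 1, and 0 without RANKL replicate 1, BMS309403 replicate 2 or BMS309403 replicate 3. Fos and Junb rose and Atf3 fell with RHC80267 beside these values, and the part of heat shock in them was not tested.

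At a q-value below 0.05 in the authors' deposited table, 4 of the 10 AP-1 genes were higher (Jdp2, Fosl2, Fos and Junb) and 2 lower (Atf3 and Fosl1) under RANKL over M-CSF. Over the whole table of 16570 genes, 6002 were below that q-value in this comparison, in either direction. Batf3, called above with edgeR, had a q-value of 0.0629 in the authors' deposited table, and Fosl1, too low for the filter here, 0.0449. For BMS309403 over RANKL the authors' deposited table had 1 higher (Atf3) and 3 lower (Jdp2, Fosl2 and Fos), with a q-value of 0.0856 for Junb. There 518 genes of the whole table were below 0.05. For RHC80267 over RANKL the authors' deposited table had 4 higher and 1 lower, where 4504 genes of the whole table were below 0.05. It had 4 higher and 2 lower (Atf3 and Fosb) for RHC80267 over BMS309403, with a q-value of 0.211 for Jund, where 5304 genes were below 0.05.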

How the data were processed

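RNA was sequenced in 12 libraries, 3 in each of 4 groups, grouped by the labels' treatment. Per the submitters' processing notes, Bowtie2, RSEM 1.3.1 and DESeq2 1.4.5 were used, and the genome build is not given in the sources used here. The deposited table holds RSEM expected counts per gene (9.49% to 9.89% of values not whole), which were rounded here, the authors' FPKM, used only to compare genes, and the authors' comparisons, with log2 fold changes and q-values. A further 24 per-sample columns, of TPM and normalized counts, were not used.

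All 12 libraries were fitted together with edgeR 4.0.16 (R 4.3.3; filterByExpr by group, TMM, quasi-likelihood test, Benjamini-Hochberg adjustment over 12168 genes, threshold 0.05), which was tested on simulated data; the filter removed 4402 genes. FPKM was not tested. DESeq2 1.42.0, limma 3.58.1 and other settings were alternatives. Replicate numbers did not pair the libraries. No 2 libraries of a group agreed within sampling noise (chi-square per degree of freedom 2.19 to 5.22).

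The members, the 14 other lists, the tests and the promoter motifs were chosen with earlier results of these data known. Named genes are all members, up to 4 of smallest p called per list and comparison, all genes counted in the interferon loop, and 3 of nearest pattern per member; Egr1, Tnfrsf11a, Nfatc1, Batf, Fam71a and the markers at 0 were added after their values were seen. Some genes of the other lists are not reported here and are left out of the lists' counts. Positions are from RefSeq on GRCm38.p6. Jund is given no position because its entry spans an unplaced sequence.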

Additional observations from a re-analysis of the deposited data

How the results depend on the processing

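Over 7 other settings and leave-one-out fits, the AP-1 genes gave 430 values with the same direction and call, 17 that lost a call, 5 that gained one and 9 that changed sign, all 9 of them in values that were not called. The count of AP-1 genes called lower with RHC80267 over BMS309403 was 1 with DESeq2, with the stricter filter (at least 1 CPM in 3 libraries) and with only the groups compared, where Fosb lost its call or was not tested. Leaving out 1 library gave 6827 to 6995 genes called with RANKL over M-CSF, 263 to 1011 with BMS309403 over RANKL, 5303 to 5762 with RHC80267 over RANKL and 5992 to 6411 with RHC80267 over BMS309403. The same fits called 4 to 5 AP-1 genes higher and 2 lower, 0 to 2 higher and 3 to 4 lower, 4 higher and 1 to 2 lower, and 4 to 5 higher and 1 to 3 lower, in that order of comparisons.

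Some values that were not called changed sign without 1 library, and the cause was not tested. Over the left-out libraries, RANKL over M-CSF ran from −0.42 (without RANKL replicate 3) to 2.24 for Fosb and from −0.01 (without M-CSF replicate 3 or RANKL replicate 3) to 0.04 for Jund. BMS309403 over RANKL ran from −0.0011 (without RANKL replicate 1) to 0.15 for Jun, from −0.34 to 0.16 (without RANKL replicate 1) for Batf3, from −0.01 (without RANKL replicate 1) to 0.08 for Ifnar2 and from −0.10 (without BMS309403 replicate 1), with −0.02 without RANKL replicate 3, to 0.07 for Socs1. RHC80267 over RANKL ran from −0.46 to 0.04 (without RANKL replicate 1) for Batf3, from −1.66 to 0.38 (without RANKL replicate 3) for Fosb and from −0.08 to 0.03 (without RANKL replicate 3) for Jun, and RHC80267 over BMS309403 from −0.26 to 0.06 (without BMS309403 replicate 3) for Batf3.

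Of the other lists, DESeq2 called 2 AP-1 cofactors and turnover factors lower, not 4, with RHC80267 over RANKL and over BMS309403, and 3 MAP kinase routes to AP-1 higher, not 6, with RHC80267 over BMS309403. With BMS309403 over RANKL the fit with no filter called 2 MAP kinase feedback inhibitors lower, not 1, 2 other bZIP factors higher, not 1, 1 of the immediate early genes outside AP-1 higher, not 0, and 0 MAP kinase routes lower, not 1. Of the heat shock and handling stress genes 1 was lower, not 2, with RLE factors or the stricter filter, and 0 with only the groups compared, where the immediate early genes and MAP kinase routes changed as with no filter. limma-voom called 2 feedback inhibitors lower.

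Libraries with the same replicate number deviated from their group means with correlations of −0.141 to 0.121 over 9840 genes, so the numbers share only a label. With the replicate block, 7384 genes were called with RANKL over M-CSF, 859 with BMS309403 over RANKL, 6044 with RHC80267 over RANKL and 6727 with RHC80267 over BMS309403, and the counts of AP-1 genes higher and lower were as in the fit without it. With BMS309403 over RANKL the block gave 2 MAP kinase feedback inhibitors lower and 2 other bZIP factors higher, and Eif2ak2 at 0.19 was not called. Counts of a few reads limit Fosb, Fosl1 and Batf3.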
